A study of Homo sapiens with 6 samples.

Results

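MYT1L peaks were examined at 10 genes of the Hippo and YAP pathway. They comprised the coactivators YAP1 and WWTR1, the DNA-binding factors TEAD1, TEAD2, TEAD3 and TEAD4, the kinases LATS1 and LATS2, and the target genes CCN1 and CCN2. The genes were chosen by name, out of 20037 protein-coding genes of the RefSeq table of GRCh38.p14, and all 10 were found there. A peak was assigned to a gene when it overlapped the gene body or the 5 kb beyond either end. The data are CUT&RUN libraries from wild-type H1, a human embryonic stem cell line, collected at day 30. In CUT&RUN an antibody guides a nuclease to a chromatin protein and the released DNA is sequenced. MYT1L was targeted in 4 libraries. The other 2 used IgG, which has no target on chromatin and gives the negative control, and the groups differ in no other label. The series describes the cells as cortical interneurons made from stem cells, whereas each sample gives embryonic stem cells as its cell type. Peaks do not measure expression, so the cell type could not be checked against its markers. H1 is a single line, and nothing in the labels says that the libraries came from separate cultures, so the spread between libraries may be technical. The MYT1L peak names carry sample numbers 1 higher than the titles, and the titles were followed.

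Hippo signalling is a kinase cascade that restrains growth. LATS1 and LATS2 phosphorylate YAP1 and its paralogue WWTR1 (TAZ) and so keep them out of the nucleus. Unphosphorylated YAP1 and WWTR1 enter the nucleus, bind TEAD factors and switch on genes such as CCN1 (CYR61) and CCN2 (CTGF), which encode secreted matrix-associated proteins. Active YAP1 supports proliferation of neural progenitors, and YAP1 is silenced in most neurons. MYT1L is a zinc-finger factor of neurons, known mainly as a repressor of programmes of other lineages, and its family recognizes a core with the letters AAGTT. TEAD factors recognize GGAATG.

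The DNA just before the start of 5 members is shown because peaks lay over part of it. Each sequence is the 250 bases before a RefSeq transcription start of GRCh38.p14, written 5′ to 3′ on the gene's strand. Capitals mark AAGTT or its reverse complement AACTT, and GGAATG or its reverse complement CATTCC.
YAP1, chr11:102110197-102110446, plus strand: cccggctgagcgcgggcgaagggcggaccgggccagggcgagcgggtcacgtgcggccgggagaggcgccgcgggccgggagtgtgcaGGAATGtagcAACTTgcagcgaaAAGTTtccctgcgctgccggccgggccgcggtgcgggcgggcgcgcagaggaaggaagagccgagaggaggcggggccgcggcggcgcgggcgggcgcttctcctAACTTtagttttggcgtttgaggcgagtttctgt
WWTR1, chr3:149658026-149658275, minus strand: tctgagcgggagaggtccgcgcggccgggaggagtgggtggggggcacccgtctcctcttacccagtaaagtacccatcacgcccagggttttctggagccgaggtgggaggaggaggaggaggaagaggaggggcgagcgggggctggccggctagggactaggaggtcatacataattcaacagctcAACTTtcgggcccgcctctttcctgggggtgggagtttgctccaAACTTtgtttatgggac
LATS1, chr6:149718102-149718351, minus strand: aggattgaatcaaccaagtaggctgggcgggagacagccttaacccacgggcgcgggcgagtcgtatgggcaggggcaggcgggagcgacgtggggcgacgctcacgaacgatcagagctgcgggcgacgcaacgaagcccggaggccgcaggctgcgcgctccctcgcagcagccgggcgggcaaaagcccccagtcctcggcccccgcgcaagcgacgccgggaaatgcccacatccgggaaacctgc
LATS2, chr13:21061587-21061836, minus strand: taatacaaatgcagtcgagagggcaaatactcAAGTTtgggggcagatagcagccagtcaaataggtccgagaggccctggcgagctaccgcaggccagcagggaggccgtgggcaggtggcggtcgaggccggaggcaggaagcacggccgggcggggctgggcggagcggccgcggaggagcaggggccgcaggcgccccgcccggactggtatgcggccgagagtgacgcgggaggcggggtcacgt
CCN2, chr6:131951373-131951622, minus strand: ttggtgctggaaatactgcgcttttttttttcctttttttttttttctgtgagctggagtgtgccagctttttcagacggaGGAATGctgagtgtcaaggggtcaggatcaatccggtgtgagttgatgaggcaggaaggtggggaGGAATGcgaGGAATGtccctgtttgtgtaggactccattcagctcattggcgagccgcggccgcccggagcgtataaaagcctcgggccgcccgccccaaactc

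The YAP1 sequence held 3 matches to the MYT1-family core, 34, 139 and 152 bases before the start, and 1 TEAD match 162 bases before it. Among all 35116 sequences of 250 bases in the RefSeq table, on both strands, 30.3% held at least 1 MYT1-family core and 1.57% held 3 or more. At YAP1 the matches at 139 and 152 bases, and the TEAD match, lay in the peaks of MYT1L replicates 1 and 2, whereas the match at 34 bases lay in no peak. WWTR1 had 2 core matches, both in a peak of replicate 4 alone. LATS2 had 1, in no peak, and the printed sequences of LATS1 and CCN2 had 0. Another LATS1 start, with its sequence from 149716426 to 149716675 not printed, had 1, and no peak lay over that sequence. The longer form AAAGTTT, which contains the core, occurred once each at YAP1 and WWTR1, and in 3.75% of all sequences. CCN2 had 3 TEAD matches, 95, 104 and 169 bases before its start. A TEAD match occurred in 11.9% of all sequences and 3 or more in 0.0826%. RefSeq start sequences were matched for 7 of the 10 members, 10 sequences in all. Of these 10, 6 held the MYT1-family core, 3 the longer form and 2 the TEAD letters.

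All 10 members had a peak in MYT1L replicate 4, as did 77.6% of all protein-coding genes, so each had one in at least 1 MYT1L library. No member had a peak in either IgG library. Peaks lay at 8, 5, 6 and 10 members in MYT1L replicates 1 to 4. Across all protein-coding genes the corresponding shares were 68.0%, 43.0%, 57.3% and 77.6%. In IgG replicates 1 and 2 they were 1.61% and 2.90%, so a list of 10 genes with no IgG peak is near the background. The order of the libraries followed their number of peaks, 27926, 12310, 18966 and 30086 in MYT1L replicates 1 to 4, against 976 and 998 in the IgG libraries. WWTR1 lacked a peak in replicates 2 and 3, CCN1 in replicates 1 and 2, and TEAD2 in all but replicate 4.

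**Figure D1:**
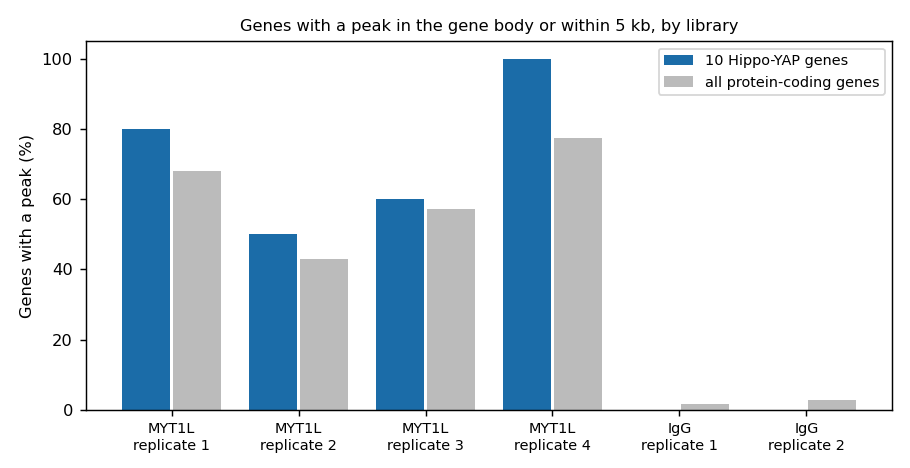
Share of genes (%, vertical axis) with a peak in the gene body or within 5 kb, in each of the 6 libraries, for the 10 Hippo-YAP genes (blue bars) and all 20037 protein-coding genes (grey bars). The blue bars rise and fall with the grey ones, from 5 of 10 genes in MYT1L replicate 2 to 10 of 10 in replicate 4, and are at 0 in both IgG libraries.

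The libraries also differed in depth. The background estimated from the peaks was 2.25 to 5.99 fragments per kb in the MYT1L libraries, and 1.55 and 0.951 in IgG replicates 1 and 2. The 10 genes held 48 MYT1L peaks, 13, 6, 8 and 21 in replicates 1 to 4. Reduced to the depth of IgG replicate 1, the 4 libraries were expected to keep 1.86, 3.52, 1.69 and 5.73 of these peaks. At the depth of IgG replicate 2 they were expected to keep 0.879, 1.67, 0.742 and 3.07. Over all 4 libraries that is 26.7% and 13.2% of the member peaks, below the 33.2% and 19.3% of all MYT1L peaks. At the depth of IgG replicate 1 the member share was lower in each library, from 14.3% against 18.6% in replicate 1 to 27.3% against 40.5% in replicate 4. Single peaks differed widely in this respect. The probability of being kept at the depth of IgG replicate 1 ran from 0.00928, for a LATS2 peak of MYT1L replicate 1, to 0.918 for the LATS1 peak of replicate 4, which had 0.601 at the depth of IgG replicate 2. The next highest at the depth of IgG replicate 1 were 0.830 for a YAP1 peak of replicate 2 and 0.792 for the TEAD1 peak at the gene end in replicate 4.

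A region was defined as MYT1L peaks joined by overlap, and called reproducible when at least 3 of the 4 MYT1L libraries had a peak in it. Of 10 members, 7 had a reproducible region without an IgG peak: YAP1, TEAD1, TEAD3, TEAD4, LATS1, LATS2 and CCN2. WWTR1 and CCN1 reached 2 libraries and TEAD2 reached 1. Of all protein-coding genes, 48.0% had such a region. Long genes offer more room for peaks. The share was 34.7% for genes under 20 kb, where 1 of 2 members had one (CCN2, not CCN1). For genes of 20 to 100 kb it was 55.1%, against 4 of 5 members (TEAD3, TEAD4, LATS1 and LATS2, not TEAD2). Above 100 kb it was 67.6%, against 2 of 3 members (YAP1 and TEAD1, not WWTR1). Summed over the 10 genes these shares come to 5.48 genes, beside the 7 counted. Requiring a deposited −log10 q of at least 5 left only LATS1 and CCN2, and 30.6% of all protein-coding genes.

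The 10 genes held 24 regions, of which 11 were seen in a single library, 6 in 2 libraries, 4 in 3 libraries and 3 in every MYT1L library. Of all regions in the genome, 58.1% were seen in a single library. Each reproducible gene had a single reproducible region. Of the 7, those at TEAD1, LATS1 and CCN2 were present in all 4 libraries, and 45.4% of the 11091 reproducible regions without IgG peak were.

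Among the coactivators, YAP1 (chromosome 11, 102110447 to 102233424, 123 kb) had 2 regions on either side of its start. The first, from 102110009 to 102110402, lay 45 bp before the gene and 55 bp from an end of the long noncoding RNA gene YAP1-DT. Its deposited fold over background was 4.12, 6.57 and 3.57 in MYT1L replicates 1, 2 and 4, with no peak in replicate 3. The summits lay 131, 227 and 349 bp before the start. The 3 libraries shared the bases from 102110141 to 102110234, which hold none of the matches described above. The mean fold was 4.75 ± 1.60 (SD, n = 3), at the 9.03 percentile of all reproducible regions. Of its 3 peaks, 2 were weak within their own lists, at the 7.83 and 8.92 percentiles of −log10 q in replicates 1 and 4, while that of replicate 2 was at the 71.4 percentile. The second region, from 102110493 to 102111604, began 46 bp inside the gene. It had folds of 5.50 and 6.63 in replicates 2 and 4 and none in replicates 1 and 3, so it was not reproducible. The last, 17.1 kb inside the gene, was present in replicate 4 alone.

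WWTR1 (chromosome 3, 149517235 to 149724788, 208 kb) had no reproducible region. The region seen in most libraries, 2, ran from 149657533 to 149658508, over an internal start of the gene and an end of the antisense RNA gene WWTR1-AS1. The fold there was 3.93 in replicate 1 and 4.72 in replicate 4, with summits 385 and 204 bp after that start. The remaining 2 regions, each in 1 library, lay inside the gene, with folds of 4.72 in replicate 4 and 5.30 in replicate 1. At both coactivators a start had peaks in some MYT1L libraries and none in others.

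The TEAD genes encode the factors through which YAP1 and WWTR1 reach DNA. TEAD1 (chromosome 11, 12674421 to 12944737, 270 kb) had the most regions, 5, and the widest reproducible one, 1520 bp across one end of the gene, from 12673875 to 12675394. The fold was 4.92, 5.35, 5.998 and 7.37 in MYT1L replicates 1 to 4, a mean of 5.91 ± 1.07 (SD, n = 4). At the summits, 13 fragments stood over a background of 1.85 in replicate 1, and 33 over 3.61 in replicate 4. The other 4 regions lay inside the gene, between 6.21 and 129.9 kb from its nearest end at their summits, and reached at most 2 libraries.

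TEAD4 (chromosome 12, 2959397 to 3040676, 81.3 kb) had a single region, across one end of the gene from 2958811 to 2960166. The fold was 4.35 in replicate 1, 5.16 in replicate 3 and 5.83 in replicate 4, with no peak in replicate 2, the library with the fewest peaks. The mean was 5.12 ± 0.744 (SD, n = 3), at the 16.6 percentile of reproducible regions. The summit of replicate 4 lay 227 bp outside the gene and those of replicates 1 and 3 lay 487 and 612 bp inside it.

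At TEAD3 (chromosome 6, 35473597 to 35497079, 23.5 kb) the reproducible region was not at the gene itself. It ran from 35468026 to 35469057, 4540 bp away, and overlapped an end of RPL10A, a gene of the large ribosomal subunit. The folds were 7.13, 5.30 and 7.07 in replicates 1, 2 and 4, and all 3 summits lay beyond the 5 kb limit, 5111, 5098 and 5043 bp from TEAD3. With a limit of 1 kb the region was no longer counted for TEAD3. Within TEAD3 itself there were 2 regions of 1 library each, with folds of 4.64 and 4.28.

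TEAD2 (chromosome 19, 49340595 to 49362416, 21.8 kb) had the weakest record of the family. It had 2 peaks, both in MYT1L replicate 4, with folds of 3.76 and 3.64, at the 7.13 and 4.60 percentiles of fold in that list. The first lay 20 bp inside the gene and the second 1002 bp outside it. The 4 TEAD genes thus ranged from a region in all 4 libraries to peaks in 1.

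The kinases LATS1 and LATS2 inactivate YAP1 and WWTR1. LATS1 (chromosome 6, 149658153 to 149718101, 59.9 kb) had a single region, across its start from 149717522 to 149718418, in all 4 MYT1L libraries. The fold was 5.15, 5.75, 6.86 and 9.66 in replicates 1 to 4, with 12, 9, 16 and 31 fragments at the summits over backgrounds of 1.52, 0.739, 1.48 and 2.31. Every library had a peak over the start, and summits lay between 84 bp before and 184 bp after it. The mean fold of 6.86 ± 2.00 (SD, n = 4) was the highest of the 7 regions, at the 66.1 percentile of all reproducible regions, and 440 bp were covered in at least 3 libraries. That rank rested on replicate 4. Without it the mean fold was 5.92 at LATS1, below 6.46 at CCN2 and 6.21 at TEAD3. The highest fold at LATS1, in replicate 4, came with a −log10 q of 21.2, the highest among the 48 member peaks. An end of the long noncoding RNA gene LOC645967 also lay in the region.

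LATS2 (chromosome 13, 20973036 to 21061586, 88.6 kb) had its reproducible region across its start, from 21060328 to 21061758. The fold was 6.24 in replicate 1, 5.03 in replicate 3 and 5.61 in replicate 4, a mean of 5.62 ± 0.606 (SD, n = 3). The peaks of replicates 1 and 3 did not overlap each other and were joined only by the wide peak of replicate 4, so no base was covered in 3 libraries. Their summits lay 52 and 1030 bp inside the gene, and without replicate 4 the call was lost. A further 2 regions inside the gene reached 2 libraries and 1. LATS2 is itself a target of YAP1, in a feedback that restores inhibition.

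**Figure D2:**
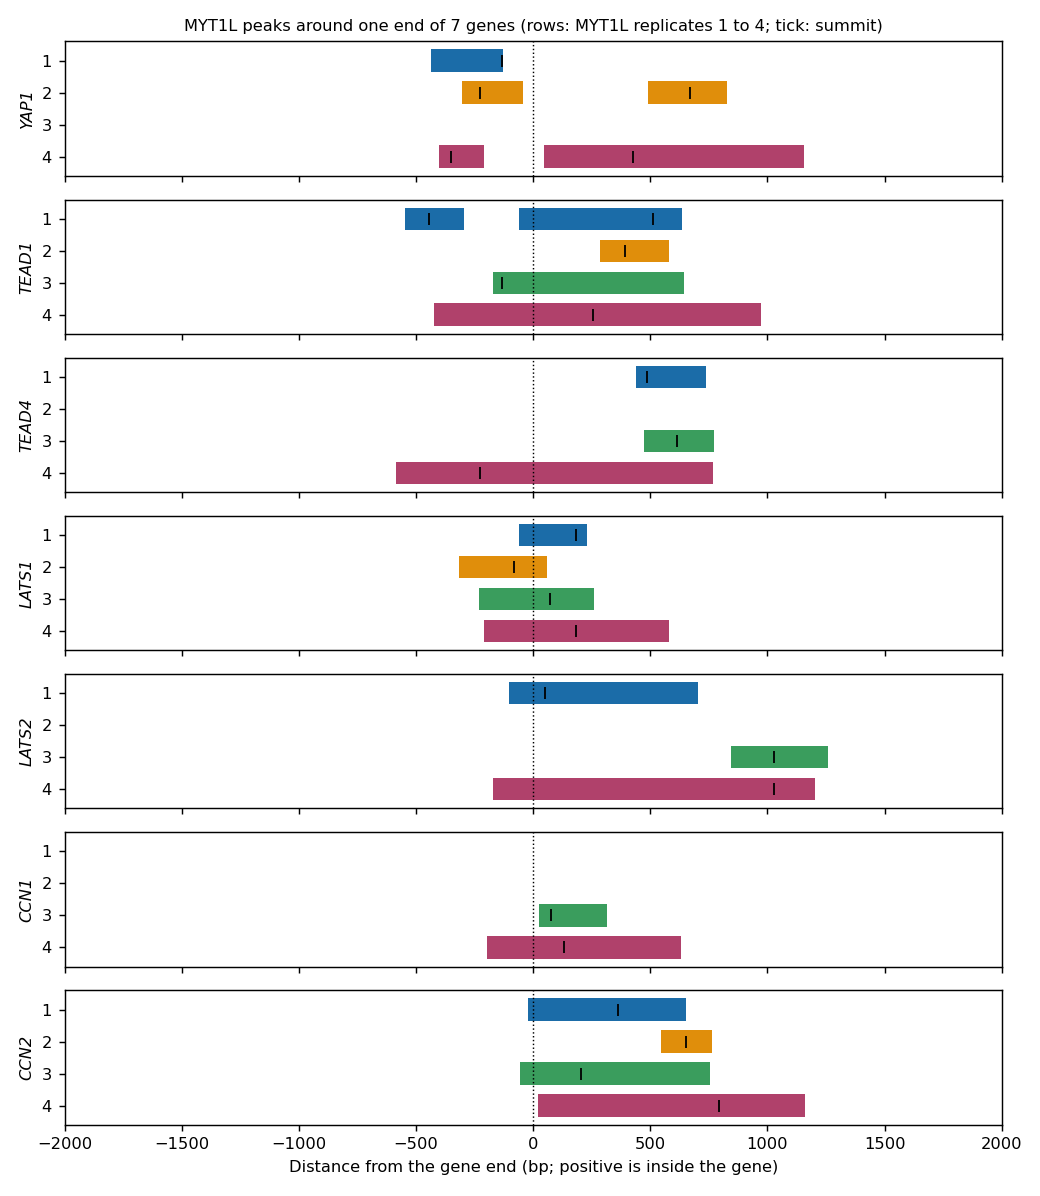
MYT1L peaks (bars, with the summit as a tick) around one end of 7 genes, by distance from that end in bp, with positive values inside the gene and 1 row for each of MYT1L replicates 1 to 4. At LATS1 all 4 libraries cover the end itself, at YAP1 the peaks lie to either side of it, and at LATS2 the peaks of replicates 1 and 3 do not meet.

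CCN1 and CCN2 are short genes and the usual readouts of YAP1 activity. CCN2 (chromosome 6, 131948176 to 131951372, 3197 bp) had a region in all 4 MYT1L libraries, from 131950212 to 131951428, reaching from inside the gene across its start. The fold was 7.17, 4.80, 7.40 and 6.54 in replicates 1 to 4, a mean of 6.48 ± 1.17 (SD, n = 4), at the 55.5 percentile. Summits lay 204 to 795 bp after the start, inside the gene. Of the 4 libraries, replicates 1 and 3 alone had a peak reaching into the 250 bases printed above, and the farther reaching of these, in replicate 3, ended 56 bp before the start. The 3 TEAD matches, which begin 95 to 169 bases before the start, lay outside the peaks of all 4 libraries.

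CCN1 (chromosome 1, 85580761 to 85583950, 3190 bp) had a region across one end, from 85580563 to 85581391, in 2 libraries. The fold was 5.14 in replicate 3 and 4.71 in replicate 4, with no peak in replicates 1 and 2. A second region, 3637 bp outside the gene, had a fold of 4.24 in replicate 4. The pair of target genes differed in the number of libraries, 4 at CCN2 and 2 at CCN1, and this difference between 2 genes was not tested.

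Of the 7 members with a start sequence, 4 (YAP1, LATS1, LATS2 and CCN2) had a reproducible region, free of IgG peaks, over the stretch from 250 bases before to 50 after a start. Over the 15843 protein-coding genes with such a window the share was 40.5%. Both counts use the whole joined region. At LATS2 only MYT1L replicates 1 and 4 had a peak in the 250 bases before the start. The 7 reproducible regions had a median fold of 5.91 and a median width of 1217 bp, against 6.29 and 794 bp over all 11091. Widths at TEAD1, LATS2 and TEAD4 were at the 95.9, 94.1 and 92.0 percentiles, while that at YAP1, 394 bp, was at the 5.69 percentile.

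**Figure D3:**
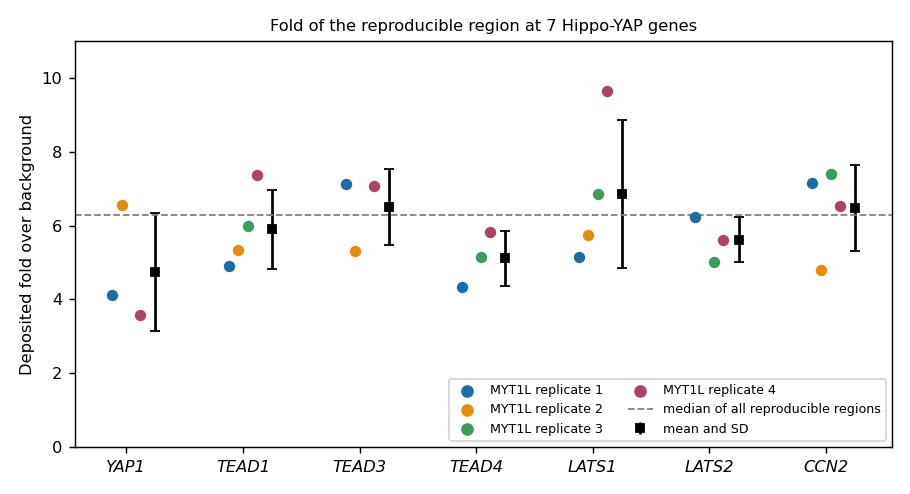
Deposited fold over background (vertical axis) of the reproducible region at 7 genes, 1 coloured point for each MYT1L library with a peak, with the mean and SD in black and the median of all 11091 reproducible regions as a dashed line. Mean folds run from 4.75 at YAP1 to 6.86 at LATS1, with SDs that overlap between neighbouring genes.

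Signal was also compared between antibodies as the length covered by peaks in each gene's window. At LATS1 it was 290, 376, 491 and 789 bp in MYT1L replicates 1 to 4 and 0 bp in both IgG libraries. CCN2 had 671, 219, 812 and 1139 bp against 0, and TEAD1 had 1309, 293, 1121 and 2427 bp against 0. At these 3 genes every MYT1L library exceeded both controls. The groups were apart in this way at 3 of 10 members and at 32.2% of all protein-coding genes. The difference in means was 487 bp at LATS1, 710 bp at CCN2 and 1288 bp at TEAD1 (exact permutation test, two-sided, 15 arrangements of the 6 libraries, p = 0.133 each, the smallest this design allows). Adjusted over all protein-coding genes by Benjamini-Hochberg the p of these genes was 0.413, and no gene of the genome could pass 0.05 in this permutation test.

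At the other 7 members at least 1 MYT1L library was at 0 bp, as were the controls. YAP1 had 310, 599, 0 and 1504 bp (difference 603 bp, exact permutation p = 0.400). LATS2 had 1060, 0, 661 and 1925 bp, a mean of 912 ± 805 (SD, n = 4). TEAD3 had 445, 69, 0 and 675 bp, counted only up to the 5 kb limit, which cuts through the region at RPL10A. TEAD4 had 297, 0, 295 and 1354 bp. WWTR1 had 481 and 1454 bp in replicates 1 and 4, CCN1 had 292 and 1153 bp in replicates 3 and 4, and TEAD2 had 582 bp in replicate 4. Replicate 4 was the highest library at all 10 genes. Without it the difference was 386 bp at LATS1, 567 bp at CCN2, 908 bp at TEAD1, 574 bp at LATS2, 303 bp at YAP1, 197 bp at TEAD4, 171 bp at TEAD3, 160 bp at WWTR1, 97.3 bp at CCN1 and 0 bp at TEAD2. This moved the value by less than 1.5 times at LATS1, CCN2 and TEAD1 and by more at the other genes. The median difference over the 10 members was 487 bp, against 385 bp over all protein-coding genes. This comparison does not allow for gene length, whose median was 70.6 kb for the members and 24.1 kb for all protein-coding genes.

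**Figure D4:**
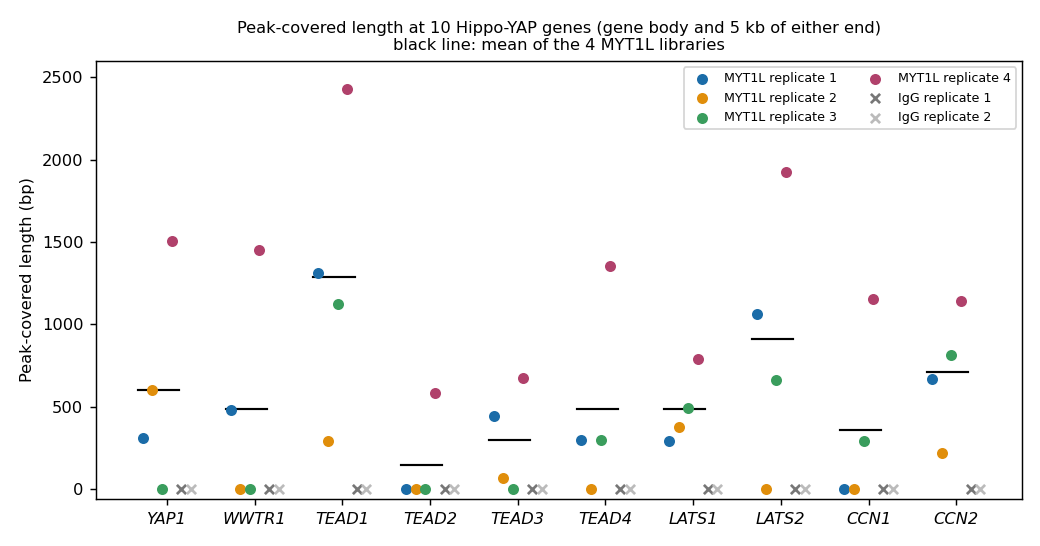
Peak-covered length (bp, vertical axis) in the gene body and 5 kb of either end at the 10 genes, with circles for the 4 MYT1L libraries, crosses for the 2 IgG libraries and a line at the MYT1L mean. MYT1L replicate 4 is highest at every gene, and the IgG libraries are at 0 bp throughout.

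Other genes of the pathway were counted from 2 wider lists. Of 25 other Hippo regulators, 19 had a reproducible region without IgG peak, and 10 of them one in all 4 libraries. Of all protein-coding genes, 48.0% and 25.3% had these. The regulators were also longer, with a median of 95.0 kb against 24.1 kb. SAV1, the scaffold of the core kinases, had a region across one end of the gene with a fold of 7.90 ± 1.80 (SD, n = 4). The kinase coactivators MOB1A and MOB1B had folds of 6.93 ± 2.30 and 6.78 ± 1.65, the region given for MOB1A lying 4144 bp outside the gene. TAOK1, an upstream kinase, had 7.29 ± 3.76, and WWC2, of the KIBRA family, had 7.40 ± 1.83, both across one end. LIMD1, a LATS-binding protein, had 7.51 ± 3.02 at 2627 bp outside the gene. FRMD6, a membrane scaffold, and AMOTL1, which binds YAP1, had 6.92 ± 2.47 and 6.60 ± 1.68, inside the gene and 78.1 and 33.9 kb from its nearest end. MOB1A, LIMD1 and AMOTL1 each had 2 reproducible regions without IgG peak, and only 1 of them is described. By length, 2 of 4 regulators under 20 kb had a region, 7 of 9 between 20 and 100 kb and 10 of 12 over 100 kb. The shares of all protein-coding genes in these length classes sum to 14.5 of the 25 genes, beside the 19 counted. MAP4K4, FAT4, AMOT, AJUBA, VGLL1 and VGLL2 had none.

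Of 19 other YAP target genes, 10 (52.6%) had such a region. Beside 25.3% of all protein-coding genes, 6 of the 19 had one in all 4 libraries. These were GADD45A, a stress-response gene (fold 6.91 ± 0.902, SD, n = 4), DOCK5 (6.34 ± 0.905), ASAP1 (5.89 ± 1.10), NT5E, which encodes the surface enzyme CD73 (5.86 ± 0.936), F3, tissue factor (5.37 ± 0.736), and ARHGEF17 (5.05 ± 0.926). All of them except ASAP1 had the region given here across an end of the gene. ASAP1 had 2 reproducible regions without IgG peak, and only 1 of them is described. The length-class shares sum to 9.79 of the 19 genes, beside the 10 counted. ANKRD1, AMOTL2, PTPN14, CRIM1, FOXF2, CCDC80, TGFB2, RBMS3 and MYOF had none. In both lists, as among the 10 members, some genes had a region in all 4 libraries and others had no reproducible one. The shares of 76.0% and 52.6% were not tested against the 48.0% of all protein-coding genes.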

How the data were processed

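The 6 peak lists were deposited by the authors, 1 per library and with no header. The submitters' processing notes name MACS2 and the build hg38. Aligner, threshold and control library are not given in the sources used here. Each deposited peak has a fold over background (a ratio), a −log10 p, a −log10 q and a score, all the authors' values. They served to describe, rank and select peaks. Fold was also averaged over libraries without rescaling, and fold and −log10 p were used to estimate depth. Peaks on chromosomes 1 to 22, X and Y were used, with coordinates counted from 1. Overlap meant at least 1 bp, and where a library had several peaks in a region the highest fold was taken. Gene coordinates and start sequences came from RefSeq (GRCh38.p14). The gene table gives no strand.

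Depth was estimated by solving the MACS formulas for a whole-number pileup. The fold was met by construction, and the deposited −log10 p was reproduced for 99.97% to 100% of peaks per library. The probability of keeping a peak at IgG depth was the binomial share of thinned pileups that would pass that IgG list's lowest −log10 p. Region building, covered length and pileup recovery were tested on simulated data. Python 3.11.15, numpy 2.4.6, pandas 2.3.3 and scipy 1.17.1 were used.

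The members and lists were chosen with earlier results of these data known. All 10 members are named. From each wider list, genes with a reproducible region in all 4 libraries are named, at most 8 by fold. No test was made over the members. The planned search at summits away from starts needs a genome sequence and was not used here. Alternatives covered peak strength, number of libraries, IgG overlap, gene window, equal numbers of peaks, overlap rule and leaving out each library.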

Additional observations from a re-analysis of the deposited data

Results flagged for a closer look

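The peak-covered length at TEAD2 was flagged because a single library stood apart from the other 3. It was 582 bp in MYT1L replicate 4 and 0 bp in replicates 1, 2 and 3. Replicate 4 also had the most peaks genome-wide, 30086, and the part this plays was not tested. Covered length was examined at all 10 genes, the number of members with a peak over the 4 libraries, and fold at the 3 regions present in all 4. Covered length is often exactly 0, and a group with 3 values of 0 and 1 above it always stands apart in this way, so no chance rate is given.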

How the results depend on the processing

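Of 10 members, 7 had a reproducible region without IgG peak, beside 48.0% of all protein-coding genes. With a −log10 q of at least 5 it was 2 (30.6% of all protein-coding genes), with all 4 libraries 3 (25.3%), and with equal numbers of top peaks 4 (33.7%); these settings leave fewer peaks or ask for more libraries. With at least 2 libraries it was 9 (65.3%), with the gene body alone 5 (43.2%) and with a flank of 1 kb 6 (44.7%). A flank of 10 kb (51.7%), an overlap of 50% of the shorter peak (47.2%) and keeping IgG regions (50.3%) left 7. Leaving out 1 library at a time gave 6 to 9, beside 48.7% to 63.3% of all protein-coding genes. Without a MYT1L library, 2 of 3 were required, a looser rule for every gene. The 9 came without MYT1L replicate 2, where the share was 63.3%. Counting only bases shared by at least 3 libraries, chosen after seeing the data, gave 6 (46.7%), without LATS2. The regulators, 19, fell to 10 with all 4 libraries and ranged from 19 to 23 with 1 library left out. The targets, 10, were 6 with all 4 libraries and 6 under the same limit on −log10 q, and ranged from 10 to 14 with 1 left out. For both lists the shares of all protein-coding genes at these settings are those given above.

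The mean fold of the 7 regions stayed within 1 SD in all 31 alternatives, but these could not have shown otherwise. Leaving out 1 of so few values cannot move a mean by 1 SD. Using the peak of highest −log10 q gave the same means. With 1 library left out the mean ran from 3.84 to 5.35 at YAP1 and from 5.92 to 7.42 at LATS1. The difference in covered length stayed above 0 in 115 of 120 alternatives and was 0 in 5, at WWTR1, TEAD2 and CCN1. The IgG libraries had no peak at any member, so the difference was the MYT1L mean and could not fall below 0. The count therefore shows only where MYT1L peaks remained. MYT1L and IgG share the numbers 1 and 2, and the labels do not say that these mark a shared culture. Same-numbered libraries deviated from their group means with correlations of 0.00496 and 0.0129 over genes. Only 4.16% of genes had any IgG cover, so these correlations cannot decide whether the numbers mark pairs. With the replicate number as a block the differences were 801 bp at TEAD1, 445 bp at CCN2 and 333 bp at LATS1 (exact permutation, p = 0.5, the smallest that 2 pairs allow).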
